A study of Mus musculus with 4 samples.

Results

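Lysosome and autophagy genes were compared between mouse haematopoietic stem cells of the long-term (LT-HSC) and the short-term (ST-HSC) repopulating compartment of the bone marrow. The genes were chosen by function, with earlier results of these data known. They form a list of 46 symbols in 7 roles. The roles are lysosomal membrane proteins, cathepsins and other peptidases, glycosidases with lipid-handling proteins and cofactors, the MiT/TFE transcription factors, and 3 successive steps of autophagy. A gene was read from probe sets annotated to its symbol alone, and the probe set brightest over the 4 arrays stood for it. This gave values for 45 of the 46 genes, on 111 probe sets, among 12832 genes tested in all. Cd63 had no such probe set and was not analysed here. All 45 genes passed the filter on dim probe sets, and none (0) had a group mean at or under it.

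The RNA came from 4 samples on Affymetrix arrays, 2 of LT-HSC (lineage-negative, cKit+, Sca1+, CD34-, CD135-) and 2 of ST-HSC (the same gate but CD34+). The C57BL/6 mice of both groups carried no Mx-Cre transgene. All had received poly(I:C), an artificial double-stranded RNA that provokes an interferon response, in 7 injections. Mice were 7.5 weeks old, 4 weeks past the last injection, for both LT-HSC replicates and for ST-HSC replicate 2. For ST-HSC replicate 3 they were 8.5 weeks old and 3 weeks past it, so age and interval cannot be told apart from the other differences of that array. No label says whether replicates were separate animals or pools, and p-values then measure only the spread between these samples, which may be technical. The tissue entry of the ST-HSC samples reads LT-HSC beside a CD34+ gate; the titles set the groups.

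The gates were checked on Cd34, which read 23.9 and 20.5 on the LT-HSC arrays against 906 and 1171 on the ST-HSC arrays. These and all values per array below are intensities after quantile normalization of the arrays. Kit, whose product both gates select, was lower in LT-HSC (405 and 383 against 723 and 919, log2 difference -1.02, adjusted p = 0.0498 in limma). Flt3, which encodes CD135, read 74.8 and 48.5 against 242 and 136 and did not pass (adjusted p = 0.0631). Of 11 stem cell markers tested, these among them, 0 were higher in LT-HSC and 2 lower, with a median log2 difference of -0.44. Markers of plasma cells, which a lineage gate should remove, were high on both LT-HSC arrays: all 9 of 9 were higher in LT-HSC, with a summed intensity of 62714 and 62684 against 1781 and 3310 in ST-HSC. Of 7 tested B-cell markers 4 were higher and 0 lower, with sums of 4431 and 4955 against 300 and 434. Over all genes 7.92% were higher and 6.41% lower. Prdm1 of the plasma cell markers and Blk of the B-cell markers were above the filter through the LT-HSC arrays alone. Their ST-HSC log2 means were 5.02 and 4.93, with the filter at 5.03, so these 2 calls add no support. Markers of maturing granulocytes stood apart on 1 array, with a summed intensity of 53429 on ST-HSC replicate 3 against 3644 on ST-HSC replicate 2 and 3742 and 507 in LT-HSC. The part of these cells in the results below was not tested, and in bulk RNA fewer cells of a type and less RNA per cell cannot be told apart.

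Lysosomes are acidic organelles whose hydrolases break down protein, glycan and lipid, and autophagy delivers cytoplasm and worn organelles to them in a double-membraned vesicle. Autophagy is needed to maintain blood stem cells: mice that lack Atg7 in the blood system lose them. The lysosomal genes are under common control of TFEB, TFE3 and MITF, which enter the nucleus when mTORC1 on the lysosome is inactive.

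In LT-HSC 9 of the 45 genes were higher and 2 lower, and 34 did not pass (limma, Benjamini-Hochberg adjusted p under 0.05 over all tested probe sets). The called share was 24.4%, against a background of 14.3% of all genes. For higher calls it was 20% against 7.92%, and for lower calls 4.44% against 6.41%. The list was made with earlier results of these data known, so its shares are a description only. The median log2 difference of the members, LT-HSC minus ST-HSC, was 0.51, against -0.08 over all genes. Both LT-HSC arrays lay above both ST-HSC arrays for 23 members (51.1%, background 28.6%) and below them for 7 (15.6%, background 35.7%). In the deposited values before normalization 40 of the 45 had the same order of arrays, including all 11 called. The LT-HSC arrays lay closer to each other (median absolute log2 difference 0.15 over the members) than the ST-HSC arrays did (0.40), and the values over all genes were 0.23 and 0.37. Every log2 difference is of intensity + 16, which understates the change of dim probe sets.

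**Figure D1:**
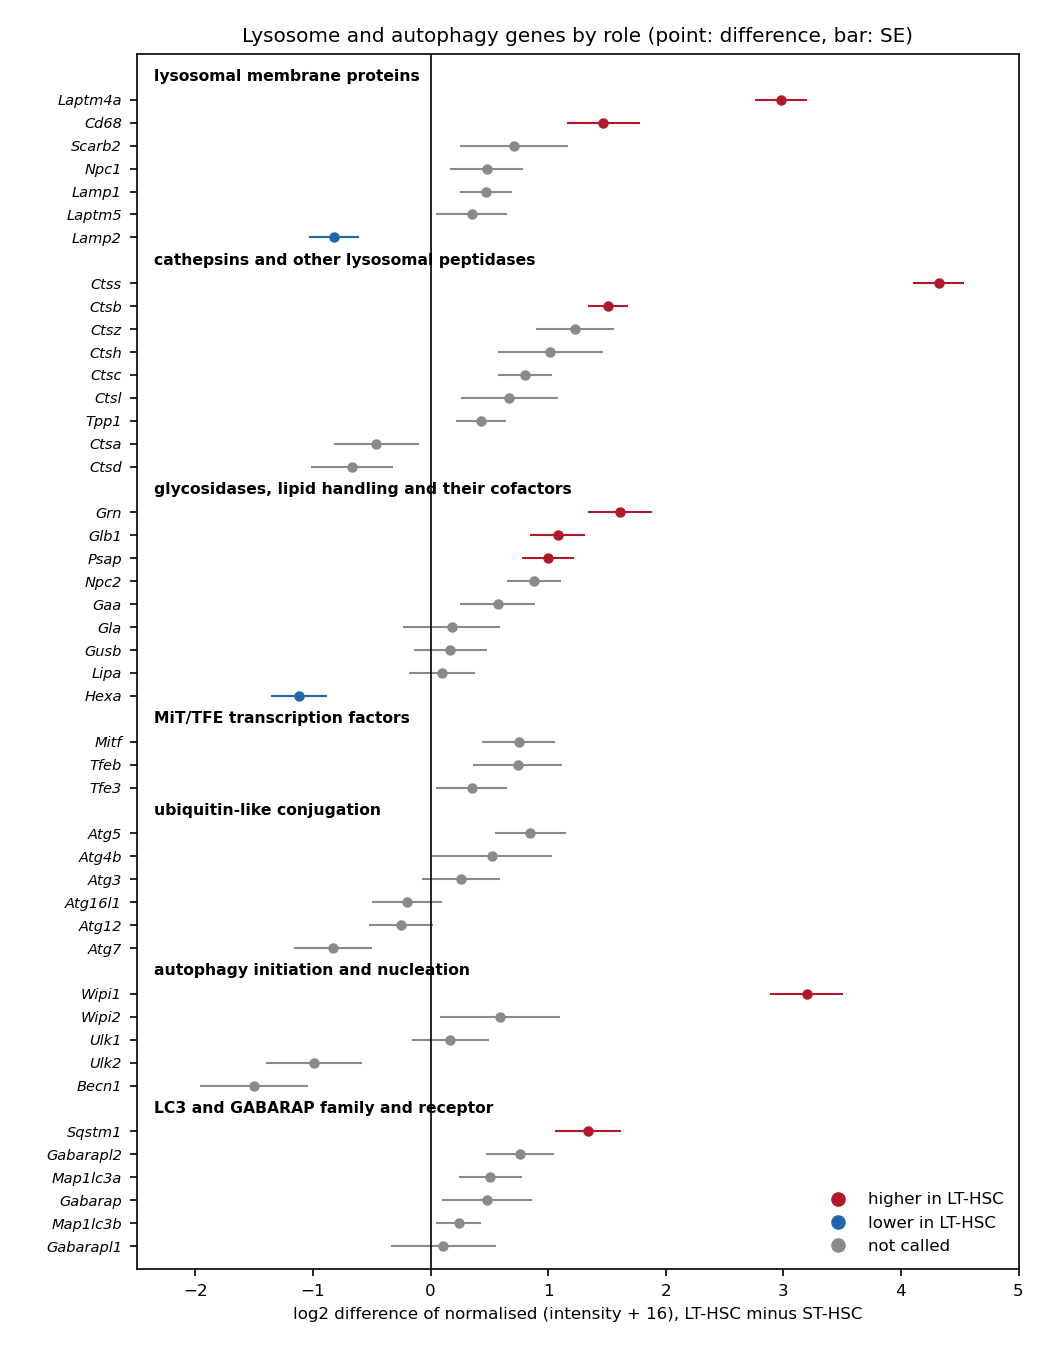
Log2 difference (x axis, LT-HSC minus ST-HSC, of normalised intensity + 16) of the 45 genes by role, with the moderated standard error as a bar; red is higher in LT-HSC at an adjusted p under 0.05, blue lower, grey not called. The 9 red points run from Psap at 1.0 to Ctss at 4.32, and the blue points are Lamp2 at -0.82 and Hexa at -1.12.

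Among the lysosomal membrane proteins, Laptm4a rose most in LT-HSC. It encodes a transmembrane protein of late endosomes and lysosomes and read 2448 and 2644 on the LT-HSC arrays against 321 and 297 on the ST-HSC arrays. The groups were far apart and both pairs were tight (log2 means 11.32 ± 0.08 and 8.34 ± 0.08, SD, n = 2 each; 7.88-fold, difference 2.98, SE 0.22, adjusted p = 0.000814). Cd68, a lysosomal glycoprotein abundant in macrophages, read 159 and 210 on the LT-HSC arrays against 57 and 54.6 on the ST-HSC arrays. The fold was 2.77 (difference 1.47, SE 0.31, adjusted p = 0.0299), a call that was lost with no normalization between arrays. Of 13 other macrophage and monocyte markers tested 7 had a positive difference and 6 a negative one. Both LT-HSC arrays lay above both ST-HSC arrays for 6, as for Cd68, and below them for 5 (28.6% and 35.7% of all genes). The 6 were Marco (1.21, adjusted p = 0.055 in limma), Csf1r (0.94), Mertk (0.61), Siglec1 (0.57), Mrc1 (0.51) and Adgre1 (0.38). On the brightest probe set none (0) of the 13 passed as higher in limma. Ccr2 lay at 0.13 on that probe set, while 1 of its 4 tested probe sets was higher. The 5 were Lyz2 (-3.11), Vcam1 (-2.44), F13a1 (-2.20), Cd14 (-0.81) and C1qb (-0.16). Marco was above the filter through the LT-HSC arrays alone (log2 means 5.87 in LT-HSC and 4.66 in ST-HSC). Vcam1 was above it through the ST-HSC arrays alone (4.44 and 6.88). F13a1 passed as lower, on a probe set above the filter through the ST-HSC arrays alone (log2 means 4.54 in LT-HSC and 6.75 in ST-HSC, filter 5.03). The summed intensity of the 13 was 1830 and 1186 on the LT-HSC arrays against 1211 and 5180 on the ST-HSC arrays, and Lyz2 alone made 3630 of the last. C1qa, C1qc, Cd163, Cx3cr1 and Itgam were not above the filter. The part of macrophages in the Cd68 difference was not tested.

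Lamp2 gave opposite answers on its 4 probe sets. LAMP2 is with LAMP1 the main glycoprotein of the lysosomal membrane, and its gene has alternative last exons that give isoforms with different tails, of which LAMP2A serves chaperone-mediated autophagy. The brightest probe set read 921 and 881 on the LT-HSC arrays against 1500 and 1721 on the ST-HSC arrays and was lower in LT-HSC (-0.82, SE 0.21, adjusted p = 0.0491). The next read 476 and 452 against 736 and 1285 and did not pass (-1.04, SE 0.32, adjusted p = 0.0787). Both remaining probe sets, which were designed on the RefSeq mRNA, were higher in LT-HSC: one read 1102 and 989 against 271 and 398 (1.62, SE 0.28, adjusted p = 0.0169), the other 255 and 287 against 50.6 and 110 (1.64, SE 0.39, adjusted p = 0.0402). Within each probe set the groups did not overlap, so the disagreement is larger than the spread between replicates. Which exons each probe set covers was not analysed here, and Lamp2 has no single direction in these data: its lower call was lost under 9 of 13 other settings and its sign turned in another.

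The other membrane proteins did not pass on their brightest probe set. Lamp1 read 1817 and 1710 on the LT-HSC arrays against 1108 and 1454 on the ST-HSC arrays, without overlap (0.47, SE 0.22, adjusted p = 0.198). Npc1, the cholesterol exporter of the lysosomal membrane, lay at 0.48 (SE 0.31). Laptm5, a haematopoietic relative of Laptm4a, read 5986 and 5220 on the LT-HSC arrays and 6217 and 3104 on the ST-HSC arrays, so the ST-HSC pair spanned the LT-HSC values. Scarb2, encoding the receptor LIMP-2 that carries glucocerebrosidase to lysosomes, showed the widest gap within ST-HSC of this role (2157 and 724, against 2122 and 2009 in LT-HSC).

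Ctss showed the largest difference of all 45 genes. Cathepsin S is the protease that trims the invariant chain from MHC class II in B cells, dendritic cells and macrophages. Its probe set read 9684 and 9473 on the LT-HSC arrays against 384 and 558 on the ST-HSC arrays (log2 means 13.23 ± 0.02 and 8.90 ± 0.37, SD, n = 2 each; difference 4.32, SE 0.22, adjusted p = 0.000221). The LT-HSC arrays lay far above the ST-HSC arrays. The B-cell and plasma cell markers were high on the same LT-HSC arrays. Of 7 dendritic cell markers tested, 2 had a positive difference and 5 a negative one, with a median of -0.14. H2-Ab1 (1.39) alone of these 7 was called, as higher, where 7.92% of all genes were. The macrophage and monocyte markers, given above, went both ways. The part of any of these cells in the Ctss difference was not tested. Ctsb, the abundant cysteine protease cathepsin B, read 4654 and 4489 on the LT-HSC arrays against 1470 and 1718 on the ST-HSC arrays, 2.86-fold higher (1.51, SE 0.17, adjusted p = 0.00359). A further probe set of Ctsb passed in the same direction (1.61), and those at 0.70 and 1.0 did not pass.

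The 7 other peptidases did not pass. Ctsz (cathepsin X) read 642 and 618 on the LT-HSC arrays against 195 and 344 on the ST-HSC arrays (1.23, SE 0.33, adjusted p = 0.0582), and Ctsh, an aminopeptidase, read 403 and 398 against 114 and 307 (1.02, SE 0.45, adjusted p = 0.178). On these probe sets neither pair of groups overlapped, but the ST-HSC arrays stood apart from each other. The other probe sets of Ctsz lay at 0.13, where the groups overlapped, and 0.94, and that of Ctsh at 0.85. They did not pass. Ctsc, which activates the serine proteases of myeloid granules, lay at 0.80 (SE 0.23, adjusted p = 0.0632), Ctsl at 0.67 and Tpp1, a tripeptidyl peptidase, at 0.43. Ctsd, the aspartyl protease cathepsin D, and Ctsa, which protects beta-galactosidase and neuraminidase, lay on the other side of 0 at -0.67 (SE 0.35) and -0.46 (SE 0.36), and for both ST-HSC replicate 3 was the highest array, at 1142 and 542. That array also held the high granulocyte markers, whose part in these values was not tested.

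**Figure D2:**
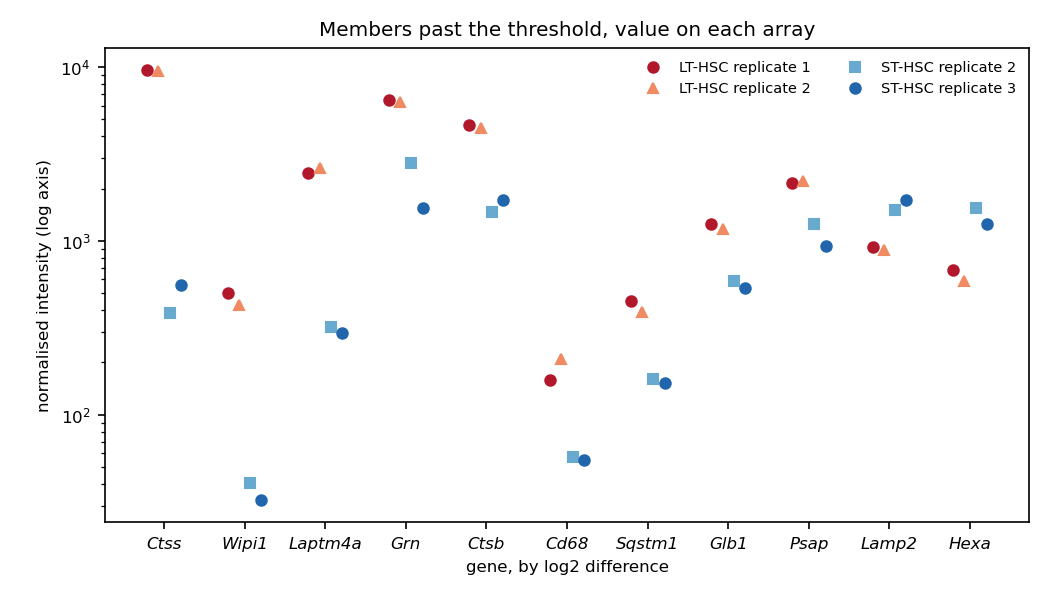
Normalised intensity (y axis, log scale) of the 11 called genes on each of the 4 arrays. For the 9 genes from Ctss to Psap both LT-HSC arrays lie above both ST-HSC arrays, and for Lamp2 and Hexa both lie below; levels of different genes cannot be compared, since each comes from its own probe set.

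Of the glycosidases, lipid-handling proteins and cofactors, 3 were higher in LT-HSC and 1 was lower. Grn, encoding progranulin, a secreted and lysosomal cofactor, read 6470 and 6289 on the LT-HSC arrays against 2792 and 1548 on the ST-HSC arrays. The fold was 3.05 (difference 1.61, SE 0.27, adjusted p = 0.0145), and its other probe sets passed at 1.64 and 2.19. Glb1, the lysosomal beta-galactosidase, read 1251 and 1164 against 589 and 537, with both pairs tight (2.11-fold, 1.08, SE 0.23, adjusted p = 0.0294). Psap, the precursor of the saposins that present sphingolipids to their hydrolases, read 2149 and 2220 against 1254 and 934 (1.0, SE 0.22, adjusted p = 0.0331), while a dim second probe set lay at 0.51 and did not pass. The calls of Glb1 and Psap were lost with the spread modelled without an intensity trend, and that of Psap also with its probe sets averaged (0.76, adjusted p = 0.0899 in limma).

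Hexa went the other way. It encodes the alpha subunit of beta-hexosaminidase, whose loss causes Tay-Sachs disease, and read 680 and 586 on the LT-HSC arrays against 1550 and 1256 on the ST-HSC arrays, 2.18-fold lower in LT-HSC (-1.12, SE 0.24, adjusted p = 0.0295). That call was lost with the arrays centred on their medians and without the intensity trend. Npc2, which binds cholesterol inside the lysosome, read 4802 and 4955 on the LT-HSC arrays against 3319 and 2090 on the ST-HSC arrays and just missed the threshold (0.88, SE 0.23, adjusted p = 0.0512), while its second probe set passed (0.75, SE 0.18, adjusted p = 0.045). Gaa (acid alpha-glucosidase), Gla (alpha-galactosidase A), Gusb (beta-glucuronidase) and Lipa (lysosomal acid lipase) lay between 0.10 and 0.57 and did not pass. Gla was dim, at 40.2 and 85.9 on the LT-HSC arrays and 38.6 and 66 on the ST-HSC arrays.

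None (0) of the 3 MiT/TFE factors passed in limma, and 1 (Mitf) had an unadjusted p under 0.05. Each had both LT-HSC arrays above both ST-HSC arrays, as did 28.6% of all genes and 51.1% of the members. Tfeb read 118 and 215 on the LT-HSC arrays against 77.3 and 103 on the ST-HSC arrays (0.74, SE 0.38, adjusted p = 0.232). Mitf read 217 and 207 against 139 and 102 (0.75, SE 0.31, adjusted p = 0.157), and Tfe3 105 and 112 against 73 and 90.2 (0.35, SE 0.30, adjusted p = 0.471). The gap between the LT-HSC arrays of Tfeb was -0.79 on the log2 scale, as wide as its difference between the groups.

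The MiT/TFE factors bind the CLEAR element, built on the E-box CACGTG, in promoters of lysosomal genes. Promoter windows of 300 bases (250 before to 50 after the start site, RefSeq, GRCm38.p6) were at hand for 39 of the 46 genes, and CACGTG, which reads the same on both strands, was in those of 10 (25.6%), against 8.09% of 27025 genes. The longer TCACGTGA, which contains it, was in 4 (10.3%, against 1.12%), and the full element, with a further G before and C after, was in 0 (against 0.37%). Of the 11 called genes 10 had a window, and only Glb1 held CACGTG. A match is a description of letters, not a site of binding. The stretches show Glb1, Lamp1 with its 4 copies, and the 4 genes with the longer form; capitals mark CACGTG or TCACGTGA, and positions count back from the start site.
Glb1, chr9:114401010-114401055, plus strand, -68 to -23: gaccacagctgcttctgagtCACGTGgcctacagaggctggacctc
Lamp1, chr8:13159080-13159160, plus strand, -81 to -1: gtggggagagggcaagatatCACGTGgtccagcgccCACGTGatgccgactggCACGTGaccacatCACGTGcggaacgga
Ctsd, chr7:142387900-142387945, minus strand, -118 to -73: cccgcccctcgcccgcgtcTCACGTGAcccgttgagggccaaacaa
Ctsa, chr2:164833741-164833772, plus strand, -32 to -1: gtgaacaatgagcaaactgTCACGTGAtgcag
Gla, chrX:134601174-134601252, minus strand, -247 to -169: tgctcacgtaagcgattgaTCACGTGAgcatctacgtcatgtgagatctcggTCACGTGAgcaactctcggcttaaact
Atg3, chr16:45158715-45158783, plus strand, -114 to -46: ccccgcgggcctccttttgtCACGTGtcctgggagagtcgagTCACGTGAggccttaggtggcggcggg

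Of the genes that start autophagy, Wipi1 rose in LT-HSC. WIPI proteins bind the phosphoinositide made by the Beclin 1 complex and bring the conjugation machinery to the forming membrane. Wipi1 read 503 and 429 on the LT-HSC arrays against 40.7 and 32.1 on the ST-HSC arrays, where it was dim (9.19-fold, 3.20, SE 0.31, adjusted p = 0.00199). A second probe set passed at 2.37, and those at 0.58 and 0.45 did not. The dimmest, at 1.66, was above the filter through the LT-HSC arrays alone (ST-HSC log2 mean 4.56) and adds no support. Its relative Wipi2 read 324 and 149 on the LT-HSC arrays and 221 and 88.7 on the ST-HSC arrays, with partly overlapping ranges (0.59, SE 0.51).

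Becn1, the scaffold of the phosphoinositide kinase complex, had the most negative difference of the 45 genes and read 92.8 and 179 on the LT-HSC arrays against 271 and 574 on the ST-HSC arrays. The groups did not overlap, but the arrays within the groups stood apart (-0.85 for LT-HSC replicate 1 minus 2, -1.04 for ST-HSC replicate 2 minus 3, log2) and the gene did not pass (-1.50, SE 0.46, adjusted p = 0.0801). Its other probe sets lay at -0.46 and -0.68. The one at -0.68 was above the filter through the ST-HSC arrays alone (log2 means 4.90 in LT-HSC and 5.58 in ST-HSC) and adds no support. The starter kinase genes Ulk1 (0.17, SE 0.33) and Ulk2 (-0.99, SE 0.41, adjusted p = 0.157) did not pass, and the other probe sets of Ulk2 lay at 0.47, -0.71 and -0.13.

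The conjugation genes, which couple ATG12 to ATG5 and attach LC3 to lipid, had no call in limma (0 of 6, 2 at an unadjusted p under 0.05) and a median of 0.03. Atg5 read 185 and 179 on the LT-HSC arrays against 88.7 and 98.6 on the ST-HSC arrays (0.85, SE 0.30, adjusted p = 0.107), and a second probe set passed (1.30, SE 0.31, adjusted p = 0.0434) while the third lay at -0.56. Atg7, the activating enzyme, lay at -0.83 (SE 0.33, adjusted p = 0.15), with 33.3 and 37.5 on the LT-HSC arrays against 59 and 95.2 on the ST-HSC arrays. Atg3, the conjugating enzyme for LC3, read 794 and 903 on the LT-HSC arrays and 516 and 962 on the ST-HSC arrays, overlapping. The protease gene Atg4b (0.52), Atg12 (-0.25) and Atg16l1 (-0.20) also did not pass.

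Sqstm1 was called in the LC3 and GABARAP role. It encodes p62, the receptor that ties ubiquitinated cargo to LC3, and read 454 and 388 on the LT-HSC arrays against 161 and 152 on the ST-HSC arrays, 2.52-fold higher (1.34, SE 0.28, adjusted p = 0.0305). A second probe set read 125 and 140 against 3.68 and 0.874 (3.03, SE 0.30). It was above the filter through the LT-HSC arrays alone (ST-HSC log2 mean 4.19), so its call adds no support. Map1lc3b, the common LC3 gene, read 3913 and 3380 on the LT-HSC arrays and 3545 and 2671 on the ST-HSC arrays on its brightest probe set, overlapping (0.24, SE 0.19, adjusted p = 0.436). Its next probe set read 1925 and 1817 against 535 and 616 and passed (1.68, SE 0.22, adjusted p = 0.00644), and the third lay at 0.03. The dimmest read 105 and 87.9 against 57.2 and 4.33 and did not pass (1.54, SE 0.58, adjusted p = 0.132). Map1lc3a (0.51), Gabarap (0.48), Gabarapl1 (0.11) and Gabarapl2 (0.76, SE 0.29, adjusted p = 0.128) did not pass, and the ST-HSC arrays of Gabarap and Gabarapl1 stood far apart (-1.14 and 1.46 on the log2 scale, replicate 2 minus 3).

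**Figure D3:**
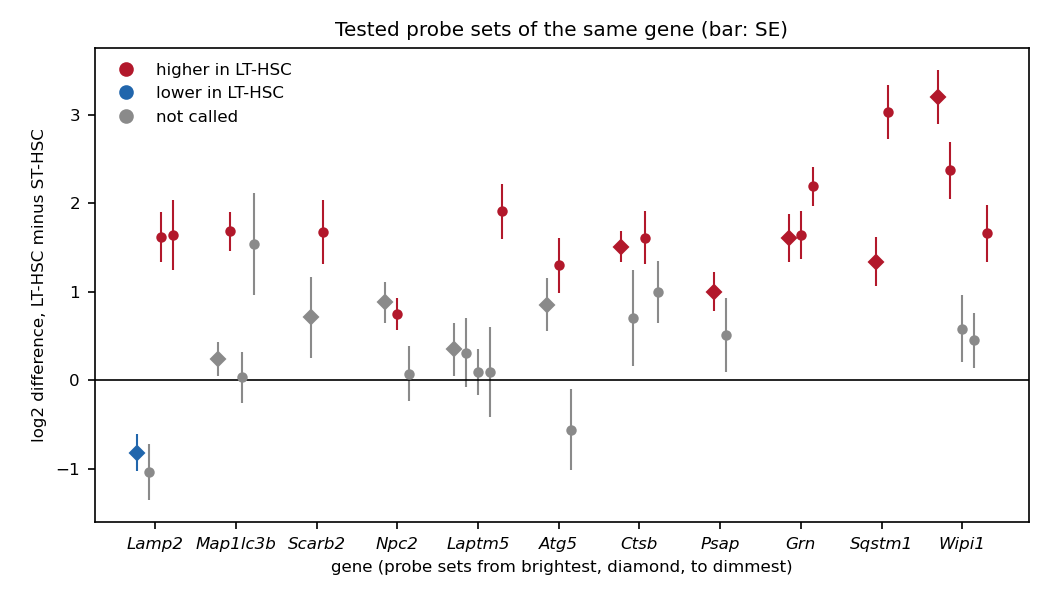
Log2 difference (y axis, LT-HSC minus ST-HSC, with its standard error) of each tested probe set of 11 genes, ordered from the brightest (diamond) to the dimmest; red is higher in LT-HSC at an adjusted p under 0.05, blue lower, grey not called. The probe sets of Lamp2 lie on both sides of 0, and for Map1lc3b, Scarb2, Npc2, Laptm5 and Atg5 a probe set other than the brightest is called.

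Over all 94 tested probe sets of the members, 22 were higher in LT-HSC and 2 lower, 25.5% against a background of 12.2% of all probe sets; the second of Sqstm1 and the dimmest of Wipi1 are among the 22 although they were above the filter through LT-HSC alone. Among the 34 genes not called, 5 (Laptm5, Npc2, Scarb2, Atg5 and Map1lc3b) had another probe set that passed, each time higher in LT-HSC. For Scarb2 this probe set read 314 and 372 against 70.8 and 130 (1.67, SE 0.36, adjusted p = 0.0307), and for Laptm5 the dimmest of 5 read 179 and 137 against 27.9 and 32.2 (1.91, SE 0.31, adjusted p = 0.0136).

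The counts depended on the arrays. Without LT-HSC replicate 1 or 2, 3 members were higher and 0 lower in each case, and these were Ctss, Laptm4a and Wipi1, against a background of 2.21% and 2.35% of all genes called. Without ST-HSC replicate 2 or 3, 22 or 20 were higher and 5 or 3 lower, against 37.1% and 27.4% of all genes, and the 11 called with all arrays were called in both. With a single array in a group, that array is taken to vary like the others. Ctss, Laptm4a and Wipi1 passed under all 13 other settings tried. The remaining 8 calls were lost without either LT-HSC array, with differences that stayed on the same side of 0.

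**Figure D4:**
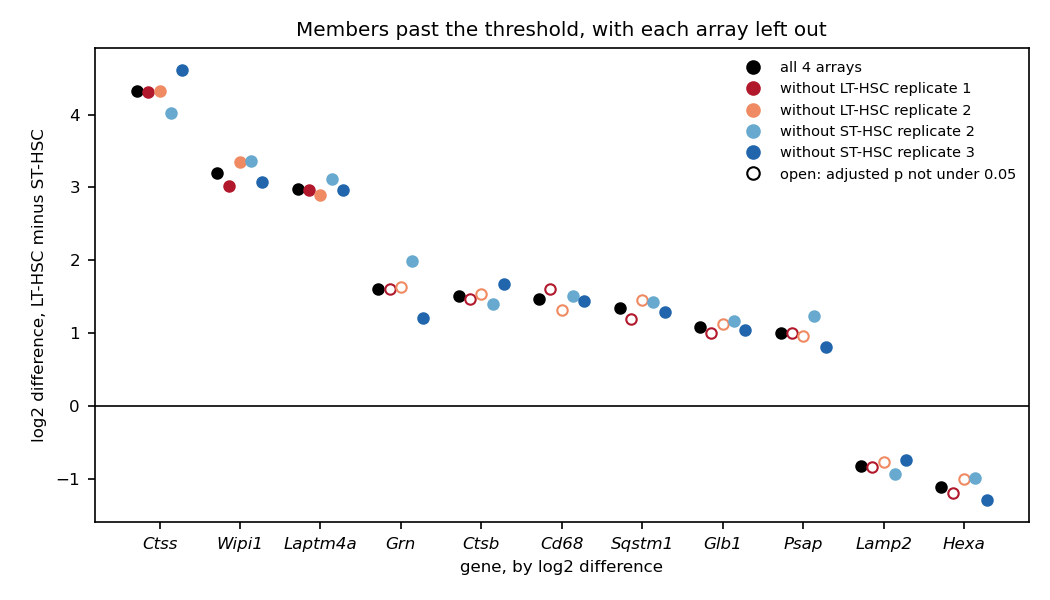
Log2 difference (y axis, LT-HSC minus ST-HSC) of the 11 called genes with all 4 arrays (black) and with each array left out (colours); open circles have an adjusted p that is not under 0.05. Each gene keeps its side of 0, and without either LT-HSC array only Ctss, Wipi1 and Laptm4a are filled.

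Further genes of the pathway were read, each on its brightest probe set, from 6 lists that hold no member. These lists too were made with earlier results of these data known. Of 128 tested genes 12 were higher in LT-HSC (9.38%, background 7.92%) and 5 lower (3.91%, background 6.41%), with a median of 0.21. These pooled shares lie near the background. Among 28 further hydrolases 7 were higher and 2 lower, where 7.92% and 6.41% of all genes were. Each other list had at most 2 higher. Smpd1 (acid sphingomyelinase, 1.87), Ppt1 (palmitoyl-protein thioesterase, 1.72) and Lgmn (legumain, an asparaginyl protease, 2.20, above the filter through the LT-HSC arrays alone, with a log2 mean of 4.92 in ST-HSC) were higher, and Dnase2a, which digests engulfed DNA, was lower (40.7 and 34 on the LT-HSC arrays against 229 and 237 on the ST-HSC arrays, -2.22, SE 0.30, adjusted p = 0.00731). Among 26 genes of lysosomal membranes and sorting, Cd81 (a tetraspanin, 1.02) and Igf2r (the large mannose 6-phosphate receptor, 1.49) were higher. Gga1 lay at 0.50 on its brightest probe set and did not pass, while 1 of its 2 tested probe sets was lower. Gnptab and Gnptg, which encode subunits of the enzyme that makes the mannose 6-phosphate tag, were both lower (-1.53 and -1.40), with Gnptg dim on all arrays, at most 47.1, and above the filter through the ST-HSC arrays (log2 means 4.43 in LT-HSC and 5.84 in ST-HSC, filter 5.03).

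Of 16 subunits of the V-ATPase, the proton pump of the lysosome, 1 was higher and 1 lower, with a median of -0.09. Atp6v0a1 read 339 on both LT-HSC arrays against 22 and 12 in ST-HSC (3.44, SE 0.32, adjusted p = 0.0018), with an ST-HSC log2 mean at the filter of 5.03, and its second tested probe set also passed. Atp6v0b read 321 and 403 against 763 and 851 (-1.13, SE 0.26, adjusted p = 0.0391). Among 29 further autophagy genes Tecpr1, which tethers autophagosomes to lysosomes, had the only call on a brightest probe set (1.82, SE 0.39, adjusted p = 0.0322 in limma). Tecpr1 passed on 1 of its 3 tested probe sets. Bcl2 did not pass on its brightest probe set (0.69), but 2 of its 5 tested probe sets were higher. Of 8 cargo receptors and mitophagy genes none (0) passed in limma on the brightest probe set, and 1 had an unadjusted p under 0.05. Another probe set of Fundc1, 1 of 3 tested, was lower in LT-HSC. Among 21 genes of nutrient and energy control Foxo1, a transcription factor that raises autophagy genes, had the only call on a brightest probe set. Foxo1 read 887 and 889 on the LT-HSC arrays against 268 and 138 on the ST-HSC arrays (2.11, SE 0.35, adjusted p = 0.0145 in limma). Another probe set of Deptor, 1 of 4 tested, was lower. Without LT-HSC replicate 1 or 2, 1 of the 128 genes was higher in each case and 0 lower; without ST-HSC replicate 2 or 3, 37 or 25 were higher and 16 or 10 lower, where 37.1% and 27.4% of all genes were called.

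**Figure D5:**
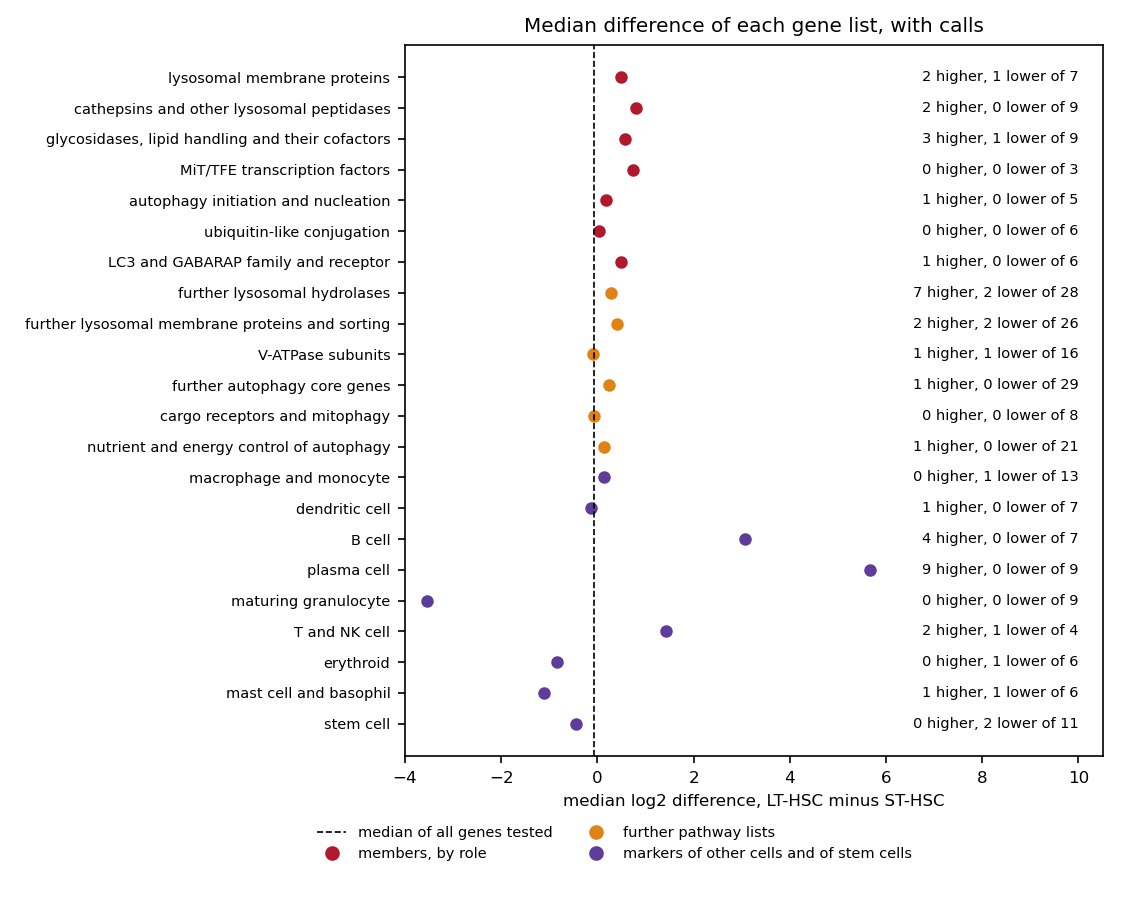
Median log2 difference (x axis, LT-HSC minus ST-HSC) of each role of the members (red), each further pathway list (orange) and each marker list (purple), with the number called of the number tested at the right; the dashed line is the median of all genes, -0.08. The medians of the roles lie between 0.03 and 0.80, the plasma cell markers at 5.67 and the granulocyte markers at -3.55.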

How the data were processed

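Each array has a deposited linear intensity for every probe set; how these were summarised and scaled is not given in the sources used here. Per the labels' protocols, Trizol RNA went through 2 rounds of amplification and biotin labelling. Array medians spanned 0.33 log2 units, so log2(intensity + 16) was quantile normalized without the 64 controls. Of 45101 probe sets, the 27022 above the 40th percentile of mean value (intensity 16.6) were tested with limma 3.58.1 in R 4.3.3 (eBayes with trend, 2 residual and 4.84 prior degrees of freedom; Benjamini-Hochberg over all probe sets, threshold 0.05). The number of arrays limits precision; with 2 against 2 an exact permutation test cannot go below p = 0.33. Platform annotation gave 1 symbol to 34945 probe sets, several to 932 and none to 9160. Members and lists were chosen with earlier results of these data known. Text names members that passed, that differed by at least 1 without overlap, the brightest per role, those with opposed probe sets, and at most 4 called genes per further list; other members and markers are named for completeness. The procedure was tested on simulated data. One item of the shared genotype is not reported here. When an array was left out, the tested probe sets were kept and the rest were renormalized.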

Additional observations from a re-analysis of the deposited data

How the results depend on the processing

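No paired analysis was possible because the groups share only 1 replicate number. In 9 settings that kept all arrays, the count of higher members stayed between 7 and 11 of 45, while the share of all genes called moved from 7.88% with no filter to 19.2% with probe sets averaged. The 2 lower members became 1 with median-centred arrays, with no normalization, with a pseudocount of 1 or 64, with no filter, with probe sets averaged and with the second brightest probe set, and 0 without the intensity trend. The median of 0.51 became 0.67 with median-centred arrays. The further pathway genes lower in LT-HSC went from 5 to 3 with no filter. With an array left out, which moved the share of all genes called between 2.21% and 37.1%, higher members ranged from 3 to 22, lower members from 0 to 5, the median from 0.42 to 0.62, higher pathway genes from 1 to 37 and lower ones from 0 to 16. Of the 45 members 28 kept their direction in all 13 settings. Averaging probe sets turned Lamp2 to 0.35, Ctsa to 0.02, Lipa to -0.08 and Gabarapl1 to -0.42, and the second brightest probe set gave Ctsa 0.49, Ctsc -0.09, Lipa -0.25, Tpp1 -0.00, Ulk2 0.47, Gabarapl1 -0.96 and Gabarapl2 -0.11; the cause was not tested. Leaving out an array turned the sign of 11 members that were not called with all arrays, which ranged for Laptm5 from -0.16 to 0.82, Gla from -0.26 to 0.60, Gusb from -0.18 to 0.51, Lipa from -0.05 to 0.26, Scarb2 from -0.07 to 1.53, Atg3 from -0.18 to 0.70, Atg4b from -0.26 to 1.35, Ulk1 from -0.14 to 0.48, Gabarap from -0.10 to 1.07, Gabarapl1 from -0.64 to 0.86 and Wipi2 from -0.00 to 1.20. The Lamp2 value is the sole called one that turned. Signal limits the dim probe sets: near the filter intensity of 16.6 the pseudocount of 16 is as large as the value itself.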
